A study of Drosophila melanogaster with 2 samples.

Results

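The genes elav, fne and Rbp9 encode the ELAV family of RNA-binding proteins of Drosophila melanogaster, and the report describes where Su(var)2-10, tagged with GFP, had chromatin immunoprecipitation peaks at them. The members were chosen by name, as the 3 genes of the family among 13945 protein-coding genes, with the measured peaks at these genes already known. Their peaks were then taken by position, as every summit in the gene body or within 5 kb of it. That rule found 7 of the 2942 reproducible peaks. Because the choice was made with the peak signals in view, the signals and ranks below are a description, and no test was made of them.

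Su(var)2-10 is the fly member of the PIAS family of SUMO ligases, enzymes that help attach the small protein SUMO to other proteins. The embryos were 0 to 24 h old, of both sexes pooled, and came from 1 stable transgenic line that expressed Su(var)2-10 with eGFP at its C-terminus. Chromatin was sonicated to fragments of 200 to 800 bp and precipitated with an antibody to GFP in 2 biological replicates, labelled 2 and 3. There was 1 group, with no second genotype, stage or tag, so the comparisons are between the replicates, between the 3 genes, and between them and all other genes.

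ELAV family proteins carry RNA recognition motifs and bind U-rich stretches of RNA, where they change splicing, the choice of polyadenylation site and the stability of the transcript. elav is expressed in neurons and is the standard marker of that cell type in the fly, fne is likewise neuronal, and Rbp9 is known from neurons and from the female germline. The chromatin came from whole embryos, so the lists cannot tell which cells carried a peak, nor how many did.

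The authors deposited 4 lists of peaks on the dm6 build that are used here. A list of 30000 candidate peaks, background included, was given for each replicate and for the pooled replicates. The fourth list holds the 2942 peaks that passed their irreproducible discovery rate threshold, called reproducible from here on, which by signal are ranks 1 to 2942 of the pooled list. The signal of a peak is the authors' score, with no stated unit and its own scale in each list, so signals are compared within a list and ranks between lists, with rank 1 as the highest. Over the reproducible peaks the signal ran from 129 to 2409 with a median of 195. A summit is the position of highest signal within a peak. Positions are 1-based on dm6, and a distance upstream or downstream of a start site follows the direction of transcription of the gene named.

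All 3 genes had a reproducible summit in the gene body or the 5 kb around it, but the peaks sat in different places. elav (FBgn0260400) had a strong peak just upstream of its main start site and a weaker one in its first intron. fne (FBgn0086675) had 3 weaker peaks, all in 1 long intron. Rbp9 (FBgn0010263) had none in the gene itself, and its 2 peaks lay between the neighbouring genes Rrp1 and gammaTub23C. Over all protein-coding genes 33.1% had a reproducible summit in the gene body and 5 kb. Among the 1482 genes whose windows were at least as long as the shortest of these 3 windows, the share was 48.7%. A summit in the gene body was found at 2 of the 3 genes, elav and fne, beside 7.66% of all genes. A summit within 500 bp of an own start site was found at the same 2 genes, beside 12.1% of all genes. Neither of these shares was also taken over genes of like length or number of starts. The 3 genes span 13673 to 32941 bp, where the median window over all genes, flanks included, was 12166 bp. At least 1 candidate summit of the pooled list lay in the windows of all 3, as it did for 85.8% of all genes.

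The sequences around the summits are shown because they carry the peaks described below and differ from each other in base composition and in short motifs. Each is 200 bases of the RefSeq Release 6 assembly (dm6) centred on a reproducible summit, on the strand of the gene named, 5′ to 3′. The capitals mark matches to 1 of 8 motifs searched on both strands, so that a match on the other strand reads as the reverse complement. The motifs were GAGAG (the core of the GAGA factor site), TATCGATA (the DREF site), CGATA (the core of the BEAF-32 site, which TATCGATA contains), GGTCACAC (core promoter motif 1), CAGGTAG (the Zelda site), CAGCTG (an E-box), GCCAT (the core of the Pho site) and TATAAA (the TATA box). The first sequence lies upstream of elav (chrX:523394-523593, minus strand), the next in the first intron of elav (chrX:522567-522766, minus strand). Those of fne follow on the plus strand (chrX:12925842-12926041, chrX:12926043-12926242 and chrX:12937952-12938151), and the last comes from the gap between Rrp1 and gammaTub23C (chr2L:2972585-2972784, plus strand).
elav upstream: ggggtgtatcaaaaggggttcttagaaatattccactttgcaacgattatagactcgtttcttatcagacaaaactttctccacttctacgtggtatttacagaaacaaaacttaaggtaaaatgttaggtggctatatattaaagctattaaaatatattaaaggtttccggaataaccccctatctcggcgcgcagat
elav first intron: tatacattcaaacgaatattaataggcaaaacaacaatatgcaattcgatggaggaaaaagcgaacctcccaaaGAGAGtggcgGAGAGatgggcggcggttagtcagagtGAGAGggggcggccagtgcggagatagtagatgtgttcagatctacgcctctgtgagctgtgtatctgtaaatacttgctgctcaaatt
fne intron, first summit: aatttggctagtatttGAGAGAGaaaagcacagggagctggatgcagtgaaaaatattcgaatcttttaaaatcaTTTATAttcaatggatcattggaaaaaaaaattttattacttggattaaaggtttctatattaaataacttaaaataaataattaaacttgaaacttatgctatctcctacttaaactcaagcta
fne intron, second summit: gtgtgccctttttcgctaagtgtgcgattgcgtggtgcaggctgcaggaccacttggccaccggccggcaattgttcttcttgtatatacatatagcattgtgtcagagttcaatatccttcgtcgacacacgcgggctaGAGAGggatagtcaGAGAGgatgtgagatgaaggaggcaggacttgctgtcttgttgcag
fne upstream of second start: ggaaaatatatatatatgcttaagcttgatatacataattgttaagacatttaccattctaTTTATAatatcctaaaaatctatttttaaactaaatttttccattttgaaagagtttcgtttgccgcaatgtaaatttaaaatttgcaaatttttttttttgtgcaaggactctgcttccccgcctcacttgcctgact
Rrp1 to gammaTub23C gap: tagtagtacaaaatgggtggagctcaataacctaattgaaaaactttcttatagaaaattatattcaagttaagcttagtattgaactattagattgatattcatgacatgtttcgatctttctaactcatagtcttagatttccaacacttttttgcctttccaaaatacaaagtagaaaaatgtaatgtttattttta

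elav lies at 509235 to 523226 of chromosome X on the minus strand and spans 13992 bp. Its strongest peak ran from 523315 to 523623 with its summit at 523494, which is 268 bp upstream of the start site at 523226 shared by the transcripts RA, RC and RD. The pooled signal was 639 with a q-value of 0.000399, the lowest that the pooled list holds. It ranked 95th of all peaks and 18th of the 498 reproducible peaks on the X. In replicate 2 the summit was at 523522 with a signal of 333 and rank 105, and in replicate 3 at 523548 with a signal of 303 and rank 104. The peak thus held almost the same rank in both replicates, with summits 28 and 54 bp from the pooled one. Of the 5124 protein-coding genes with a pooled candidate summit within 500 bp of a start site, 76 had a stronger one there than elav. The corresponding counts were 83 of 4847 genes in replicate 2 and 77 of 5582 in replicate 3.

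A distance of 268 bp is common in these data. Of the 2155 start sites with a reproducible summit within 500 bp, 545, or 25.3%, had their nearest summit more than 250 bp upstream, and the median position was 165 bp upstream. The elav peak was 309 bp wide where the commonest width was 536 bp, and 10.0% of reproducible peaks were narrower than that commonest width.

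The second reproducible peak of elav ran from 522399 to 522934 with its summit at 522667, 559 bp downstream of the main start and 827 bp from the stronger summit. It lies in the first intron, which spans 1289 bp in RA and RD (521697 to 522985) and 3743 bp in RC. The pooled signal was 185 with a q-value of 0.000947 and rank 1584. The signal was 101 in replicate 2 (rank 1327) and 82.4 in replicate 3 (rank 2286), with summits 27 and 18 bp from the pooled one. Both replicates therefore held the intronic peak well below the upstream one.

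The alternative start site of elav, at 520285 for the transcript RB, had no summit within 500 bp in any of the 4 lists. The nearest reproducible summit was 2382 bp upstream, the intronic one described above. The nearest pooled candidate was 1511 bp upstream with rank 5692. The reproducible peaks of elav therefore lay beside the start of 3 of its 4 transcripts.

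2 other genes share these positions. The lncRNA gene lncRNA:enrr (FBgn0286870, X 513106 to 523226, minus strand) starts at the same base as elav, so a peak upstream of one is upstream of the other at the same distance. arg (FBgn0023535, X 509435 to 528028, plus strand), which encodes arginase, spans both peaks on the opposite strand. Both summits lie in an arg intron, and the only annotated arg start site was 14059 bp from the stronger summit and 13232 bp from the weaker one. By position the peaks cannot be assigned to elav rather than to lncRNA:enrr.

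**Figure D1:**
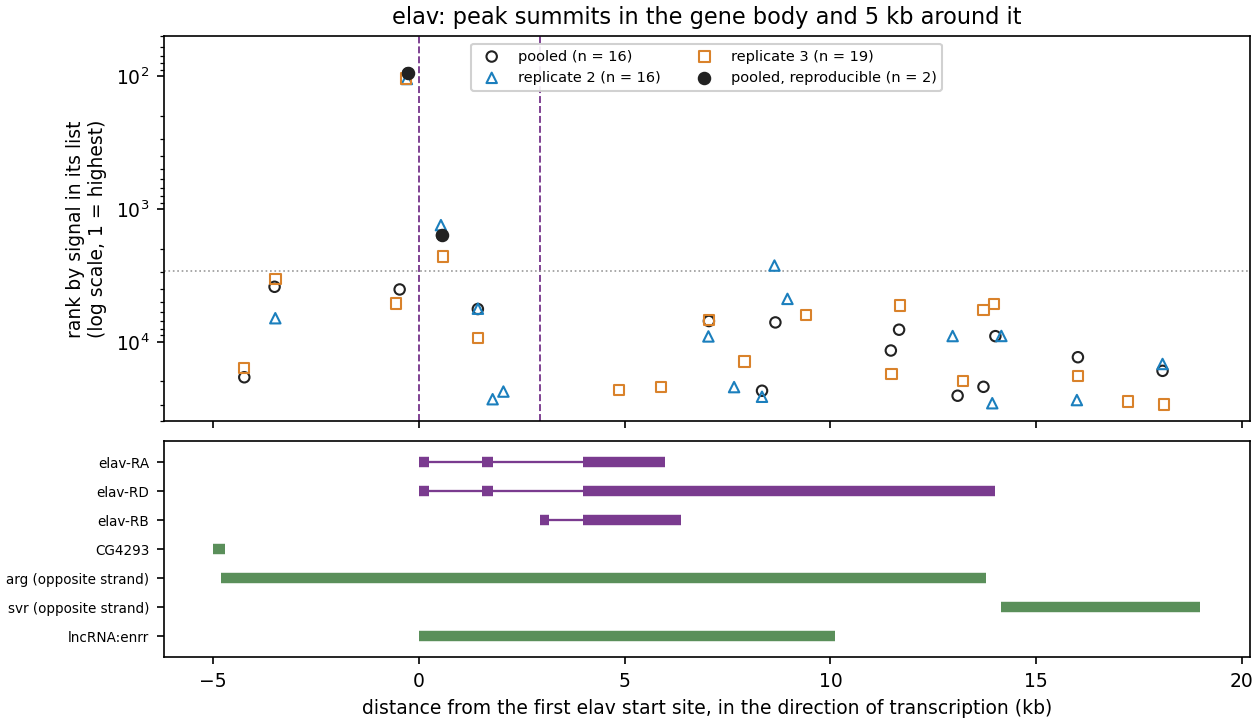
Summits in the elav gene body and 5 kb around it, with the rank by signal in the list (y axis, log scale, rank 1 at the top) against the distance from the main start site in kb (x axis). Dashed lines are elav start sites, the dotted line is rank 2942, filled circles are pooled summits that are also reproducible, purple bars are exons of distinct elav transcripts and green bars other genes. The 3 lists meet near rank 100 just upstream of the main start, and the candidates over the long 3′ end of RD lie near or below the dotted line.

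Candidates below the threshold were numerous at elav. The pooled list had 16 summits in its window of 23992 bp, replicate 2 had 16 and replicate 3 had 19. Of the pooled summits 9 lay in the gene body, 7 in a 3′ UTR and 2 in introns, and none in coding sequence, although replicate 3 had 1 there (rank 23201). The 7 lie in the 8557-bp 3′ UTR of RD, the longest annotated, with signals of 38.1 to 76.4 and ranks of 7009 to 25627. The 3′ UTRs of RA and RC (556 bp each) and of RB (942 bp) held none. The far end of the RD 3′ UTR overlaps the start of arg on the opposite strand, so candidates there lie beside the arg start too. The pooled summit at 509507 (rank 21956) is 72 bp downstream of that start, and the one at 509217 (rank 9112), just outside elav, is 218 bp upstream of it. Replicate 3 had summits at 509256 (rank 5205) and 509509 (rank 5786) there. The pooled candidates at 505154 and 507211 lie in svr, the next gene along. Within the RD 3′ UTR, the best-ranked candidate in a single list was at 514587 in replicate 2, with a signal of 67.1, a q-value of 0.0708 and rank 2676. The pooled list had it at 514564 with rank 7181. Replicate 3 had its nearest summits on either side at 513814 and 515312, not at that position. The strongest pooled candidates that missed the threshold were at 526737 (signal 109, rank 3869) and at 523697, 471 bp upstream of the main start (signal 106, rank 4052).

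The density of pooled candidates differed between the 3 genes. elav had 6.67 per 10 kb, above 94.9% of all protein-coding genes. fne had 4.89 per 10 kb, above 83.5%, and Rbp9 had 2.11, above 46.4%. The median over all genes was 2.42 per 10 kb, with quartiles of 0.918 and 4.08. Against the 1482 genes with long windows the 3 genes stood above 94.9%, 82.6% and 43.7%. Candidates include regions at background level, so a density of candidates is not a density of binding.

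**Figure D2:**
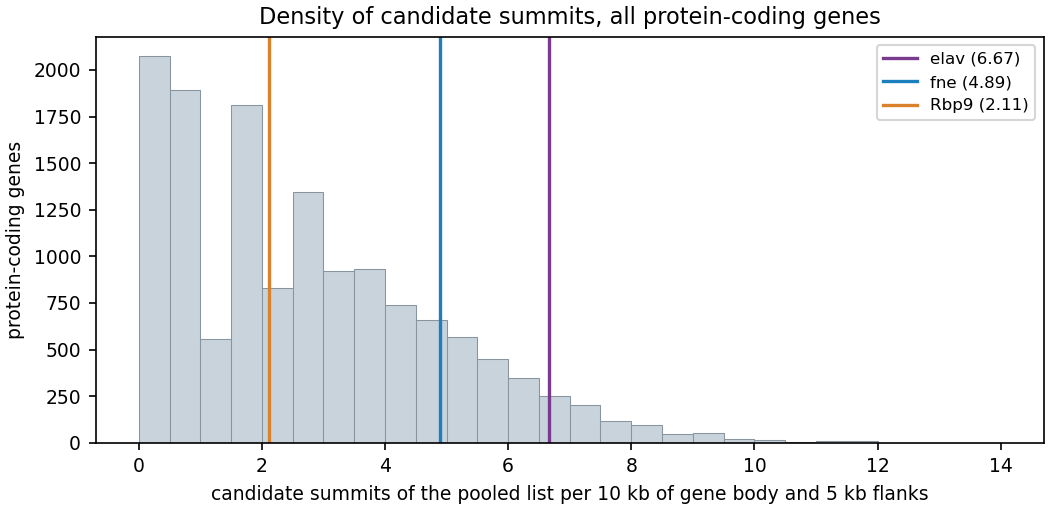
Number of protein-coding genes (y axis) by the density of pooled candidate summits per 10 kb of gene body and 5 kb flanks (x axis), for all 13945 genes. Vertical lines mark elav at 6.67, fne at 4.89 and Rbp9 at 2.11, so that elav and fne lie above the upper quartile of 4.08 and Rbp9 below the median of 2.42.

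fne lies at 12917477 to 12950417 of chromosome X on the plus strand, spans 32941 bp and has 11 transcripts from 3 groups of start sites. The first group is at 12917477 (RC, RD, RE and RL), the next at 12938517 (RA, RB, RH, RI and RK) and the last at 12941272 (RG and RJ). Its 3 reproducible summits all lie in the intron of 19305 bp (12919710 to 12939014) that follows the first exons, which in RE is 22010 bp long. None ranked among the 1471 strongest reproducible peaks.

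The strongest summit of fne was at 12925942, 8465 bp downstream of the first start site, with a pooled signal of 190, a q-value of 0.000983 and rank 1527. It ranked 268th of the 498 reproducible peaks on the X. A neighbouring summit at 12926143 had a signal of 167, a q-value of 0.00509 and rank 1868. The 2 summits are 201 bp apart, and their peaks, both of the commonest width of 536 bp, overlap by 335 bp. Any 2 peaks of that width with summits this close overlap, so the overlap cannot tell whether they are separate regions. Replicate 2 had a summit for each, at 12925940 (signal 68.0, q-value 0.0668, rank 2613) and at 12926139 (signal 50.4, q-value 0.216, rank 4329). Replicate 3 had 1 summit for both, at 12926108, with a signal of 121, a q-value of 0.000301 and rank 1064. The position was thus stronger in replicate 3 by rank, and replicate 3 did not resolve it into a pair.

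The third summit, at 12938052, lies 465 bp upstream of the second start site, the start of 5 of the 11 transcripts. Its pooled signal was 143, with a q-value of 0.0119 and rank 2477. Replicate 2 had it at 12938047 with a signal of 74.9 (q-value 0.0437, rank 2207). In replicate 3 the nearest summit was 88 bp away at 12938140, with a signal of 56.0 (q-value 0.0470, rank 4652), and another stood at 12937934 with a signal of 67.8 (rank 3264). By the strongest summit within 500 bp of a start site, 1521 of 5124 genes stood above fne in the pooled list, 1354 of 4847 in replicate 2 and 2311 of 5582 in replicate 3. An annotated insertion of the transposable element HMS-Beagle (X 12930633 to 12937689, 7057 bp, minus strand) ends 363 bp from this summit, and no list had a summit inside it. How reads from repeated sequence were placed is not given, so the lack of a summit there is no measure of binding.

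The first start site of fne and the third had no reproducible summit within 500 bp. The nearest to the first was 7738 bp upstream, outside the window, and the nearest pooled candidate was 532 bp upstream with rank 10130. The nearest reproducible summit to the third start was the one 3220 bp upstream, and the nearest pooled candidate was 1014 bp upstream with rank 7120. Replicate 3 had a summit at 12917141, 336 bp upstream of the first start, with rank 28463. Reproducible peaks near a start site of fne were thus found at the second of its 3 groups of starts. No neighbouring gene shares a reproducible peak with fne, since none of its 3 reproducible summits lies in hec, lncRNA:CR45625 or lncRNA:CR45626, which reach into the 5 kb around it, or within 500 bp of their starts. Weaker candidates do lie in these genes. The pooled summit at 12915269 (rank 7292) is in lncRNA:CR45626, 425 bp downstream of its start, and the one at 12954728 (rank 21319) is in hec.

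**Figure D3:**
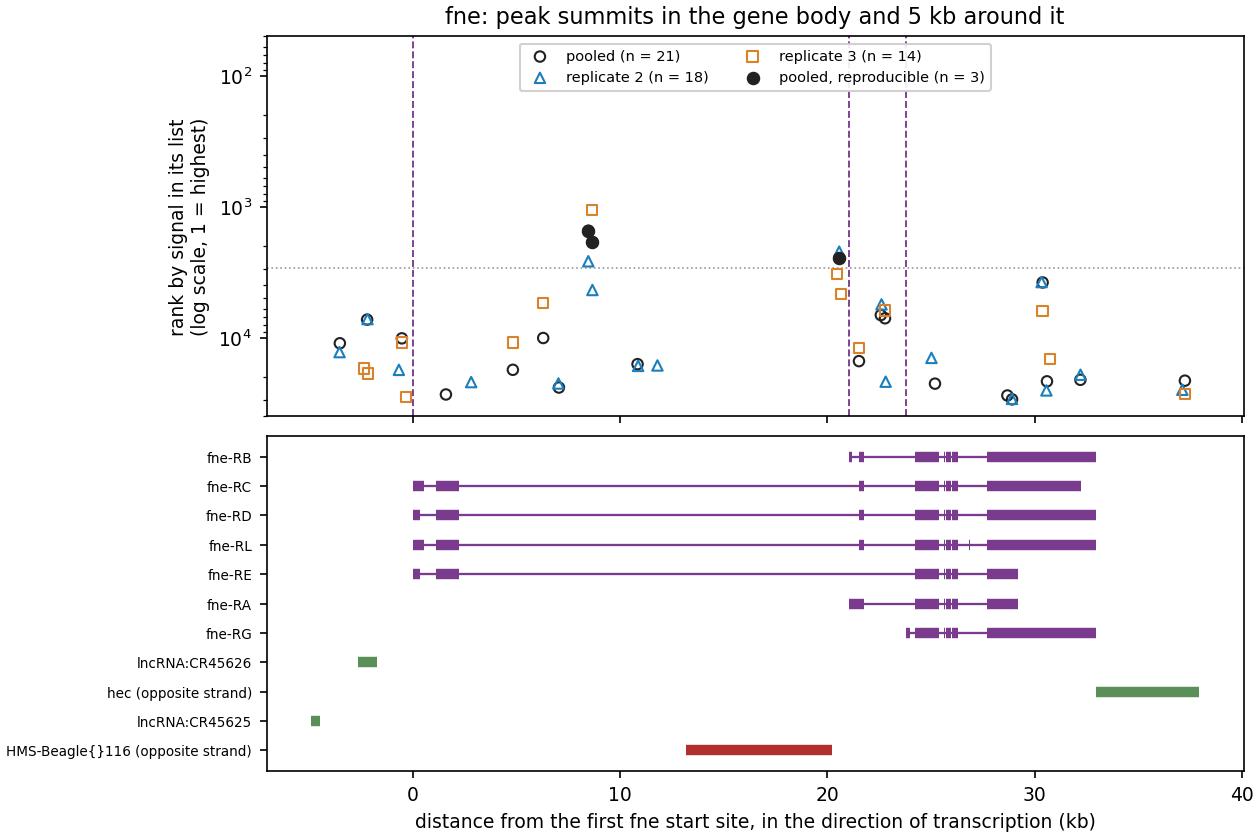
Summits in the fne gene body and 5 kb around it, with the rank by signal in the list (y axis, log scale, rank 1 at the top) against the distance from the first start site in kb (x axis). Dashed lines are the first start site of each group, the dotted line is rank 2942, filled circles are pooled summits that are also reproducible, and bars are exons of distinct fne transcripts (purple), other genes (green) and a transposable element, HMS-Beagle (red). The reproducible summits lie in the long intron and just upstream of the second start, and the pooled candidate nearest to the first start has rank 10130.

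The pooled list had 21 summits in the fne window of 42941 bp, replicate 2 had 18 and replicate 3 had 14. Of the 17 pooled summits in the gene body, 9 lay in introns, 5 in a 3′ UTR, 2 in a 5′ UTR and 1 in coding sequence. The strongest that missed the threshold was in the 3′ UTR at 12947863, with a signal of 110 and rank 3793. Replicate 2 had it 48 bp away at rank 3766 and replicate 3 had it at rank 6252.

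Rbp9 lies at 2954762 to 2968434 of chromosome 2L on the plus strand, spans 13673 bp and has 9 transcripts. They begin at 3 start sites, 2954762 (RH and RI), 2956911 (RB, RE, RG and RJ) and 2959147 (RC, RF and RK). Neither of its reproducible peaks lay in the gene or at any of these starts, which were 17923, 15774 and 13538 bp from the nearest reproducible summit.

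The stronger peak in the Rbp9 window had its summit at 2972685 with a pooled signal of 336, a q-value of 0.000399 and rank 498, and it ranked 102nd of the 567 reproducible peaks on 2L. Replicate 2 had it at 2972701 (signal 208, rank 328) and replicate 3 at 2972602 (signal 134, rank 850). The weaker summit, at 2972887, was 202 bp away in a peak that overlaps the first by 334 bp. Its pooled signal was 151 with a q-value of 0.00948 and rank 2268. Its signal was 81.5 in replicate 2 (rank 1924) and 127 in replicate 3 (rank 940). The stronger summit thus stood well above the weaker in replicate 2, while in replicate 3 the pair had nearly the same signal.

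Both summits lie in the 382-bp gap (2972509 to 2972890) between the divergent genes Rrp1 and gammaTub23C. Rrp1 (FBgn0004584, 2L 2969773 to 2972508, minus strand) encodes a DNA repair endonuclease that cuts at abasic sites, and its start was 177 bp from the stronger summit and 379 bp from the weaker. gammaTub23C (FBgn0260639, 2L 2972891 to 2974858, plus strand) encodes a gamma-tubulin of the centrosome, and its start was 206 bp from the stronger summit and 4 bp from the weaker. Each summit is upstream of both genes. The far end of Rrp1 is its start, 4074 bp beyond the end of Rbp9, so these peaks count for Rbp9 only through the 5 kb flank.

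Own start sites of Rbp9 had weak candidates at most. The nearest pooled candidates were 675 bp (rank 20838), 833 bp (rank 3446) and 631 bp (rank 20728) downstream of the 3 starts. The strongest was at 2957744, in an intron, with a signal of 117 and a q-value of 0.0463. Its signal was 40.2 in replicate 2 (q-value 0.350, rank 6530). Replicate 3 had it 34 bp away at 2957778 with a signal of 77.9 (q-value 0.00571, rank 2538), so there it stood among the best 2942 peaks. Replicate 3 also had a summit at 2954377, 385 bp upstream of the first start and inside the neighbouring gene lilli, with rank 21174. In all, the pooled list had 5 summits in the Rbp9 window of 23673 bp, replicate 2 had 6 and replicate 3 had 5.

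**Figure D4:**
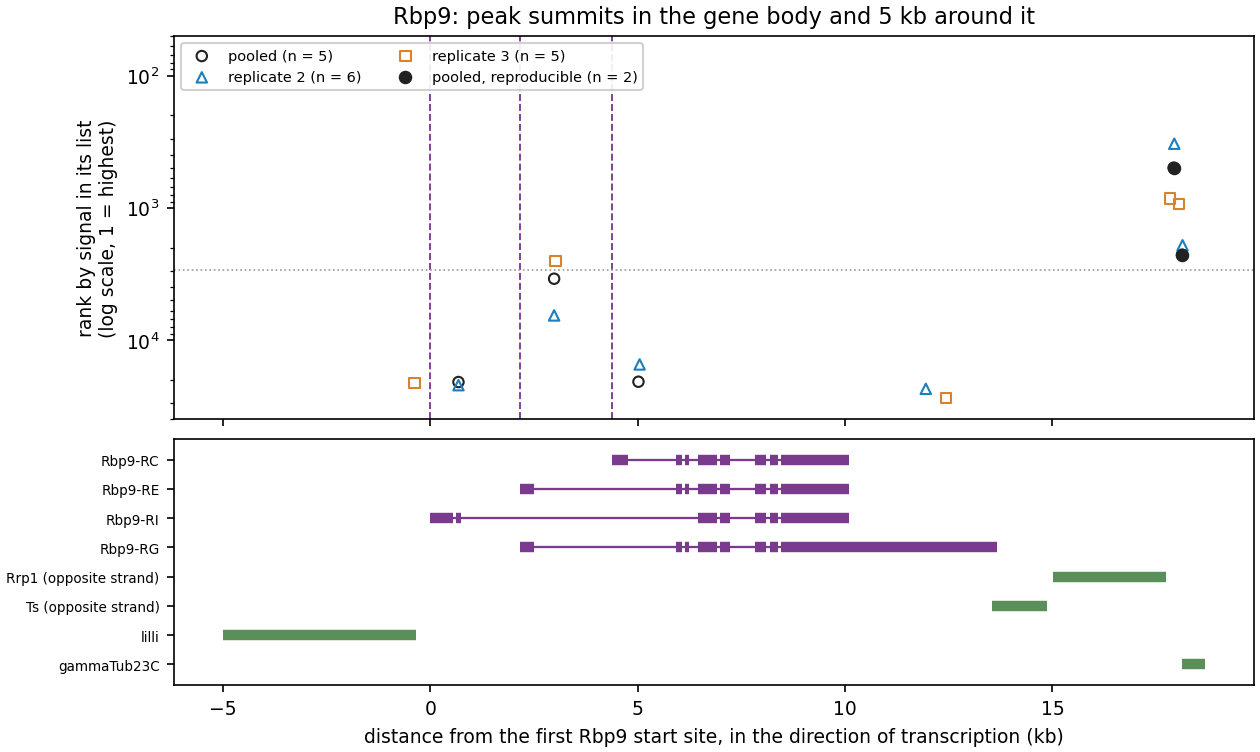
Summits in the Rbp9 gene body and 5 kb around it, with the rank by signal in the list (y axis, log scale, rank 1 at the top) against the distance from the first start site in kb (x axis). Dashed lines are Rbp9 start sites, the dotted line is rank 2942, filled circles are pooled summits that are also reproducible, purple bars are exons of distinct Rbp9 transcripts and green bars other genes. The reproducible summits lie at the right, where Rrp1 and gammaTub23C start, and the strongest pooled candidate in Rbp9 itself has rank 3446.

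The reproducible peaks passed the authors' threshold on data from both replicates and are the strongest of the pooled list. Finding them in both replicate lists was therefore largely fixed beforehand. How far the threshold rested on agreement between these 2 replicates is not given. Of the 7 reproducible summits, 6 had a summit within 100 bp in both replicate lists (85.7%), beside 2614 of all 2942 (88.9%). The exception was the summit of fne at 12925942, whose nearest summit in replicate 3 was 166 bp away. Within 50 bp, 2 of the 7 had a summit in both lists. The share over all 2942 at 50 bp is not given here, so this count has no background beside it. Ranks differed between the replicates at some summits. The upstream peak of elav had ranks of 105 and 104 in replicates 2 and 3, while the fne summit at 12926143 had ranks of 4329 and 1064. With 2 replicates these pairs of values are the whole of the spread.

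**Figure D5:**
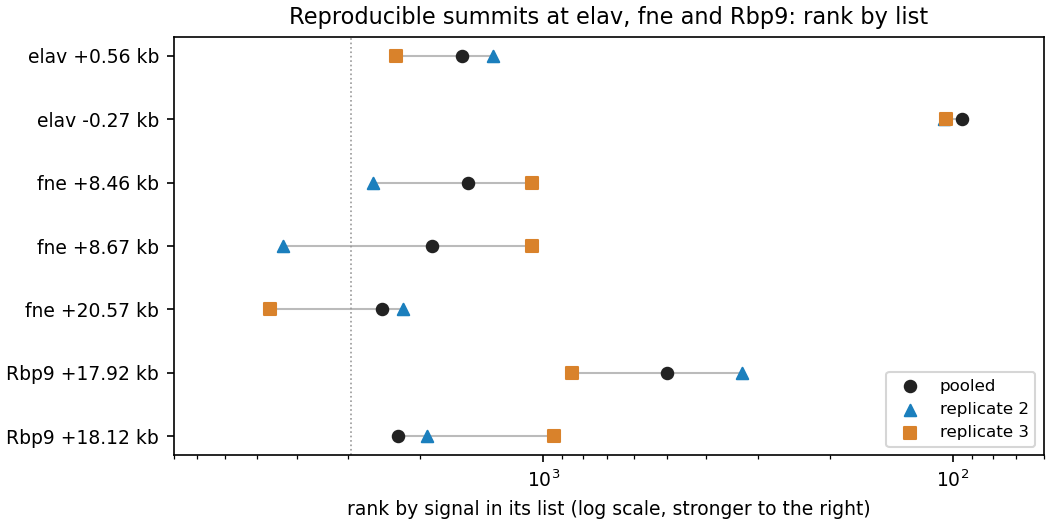
Rank by signal in its list (x axis, log scale, stronger to the right) of each reproducible summit of the 3 genes, named by its distance from the gene's first start site in kb. Circles are the pooled list, triangles replicate 2 and squares replicate 3, and the dotted line is rank 2942. The 3 marks for elav upstream of its start fall between ranks 95 and 105, and those of 2 of the 3 fne summits lie on both sides of the dotted line.

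The values just inside and just outside the threshold were apart. The weakest reproducible summit was that of fne at 12938052 (signal 143, rank 2477), and the strongest below was that of Rbp9 at 2957744 (signal 117, rank 3446), with the threshold at 129. Of the 42 pooled summits in the 3 windows, 35 were below it, with signals from 35.0 to 117 and ranks from 3446 to 29618.

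The summit windows shared no motif among all 3 genes. The intronic window of elav, printed with the first sequences, held GAGAG 3 times, beginning 25 and 15 bases before the summit and 12 after it, while the stronger upstream window of elav held none of the 8 motifs. Of all 2942 reproducible windows 23.1% held GAGAG, 3.60% held it at least 3 times, and 22.2% held none of the 8 motifs. The first fne window held GAGAG as an overlapping pair and TATAAA on the other strand. The second fne window held GAGAG at 2 places, and the window upstream of the second start held TATAAA, a motif found in 41.5% of all reproducible windows. The stronger window of the Rrp1 and gammaTub23C gap held none, and the weaker held GCCAT (23.0% of all windows) and TATAAA. None of the 7 windows held TATCGATA (2.07% of all windows), CGATA (24.6%), GGTCACAC (0.952%), CAGGTAG (0.714%) or CAGCTG (7.14%). A match to these letters is a description of the sequence.

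Base composition also differed. The windows of the overlapping fne pair had GC contents of 26.0% and 51.5%, with the latter above 97.9% of all reproducible windows. The other windows had 28.0% (fne), 36.0% and 46.0% (elav, upstream and intronic) and 26.5% and 34.0% (Rrp1 and gammaTub23C), where the median over all windows was 33.5% and the quartiles 29.0% and 38.5%.

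The 100 bases before a start site are given for the main start of elav (chrX:523227-523326, minus strand), with a strong peak, and for the first start of fne (chrX:12917377-12917476, plus strand), with no reproducible summit near it. Both hold GAGAG matches, in capitals, from the same assembly.
elav main start: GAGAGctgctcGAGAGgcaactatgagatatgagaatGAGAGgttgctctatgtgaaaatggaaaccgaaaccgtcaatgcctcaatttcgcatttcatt
fne first start: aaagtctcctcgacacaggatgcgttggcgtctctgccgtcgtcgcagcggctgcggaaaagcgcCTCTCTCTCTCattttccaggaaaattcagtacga

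The elav sequence holds GAGAG 3 times and the fne sequence 4 times, the latter as overlapping matches on the other strand. The same stretch before 19253 distinct start sites of protein-coding genes held GAGAG at 15.3% and at least 3 matches at 2.84%. Of the other starts, that of RB in elav had 2 matches, the third start of fne 1, the third start of Rbp9 1, and the second start of fne and the first and second of Rbp9 had 0. Matches to GAGAG thus stood before starts with and without a reproducible summit.

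Peaks at genes related to the family by sequence or function were described with the same rules, over lists of genes drawn up from their known roles. Of 6 relatives with RNA recognition motifs (Sxl, ssx, Rox8, bru1, bru2 and bru3), 1 had a reproducible summit within 500 bp of a start. It was Sxl, the switch gene of sex determination, with a signal of 348 (rank 458) at 426 bp downstream. Of 11 genes whose transcripts are known as targets of ELAV, 3 had one, namely Imp (signal 294, 467 bp upstream), nej (206, 474 bp downstream) and fne itself (143). Imp encodes an mRNA-binding protein and nej the CBP acetyltransferase. Of 19 other RNA-binding proteins of the nervous system or germline, 3 had one. These were msi (signal 729, 219 bp upstream, rank 58), the gene of Musashi, and the CPEB genes orb (218, 241 bp upstream) and orb2 (176, 409 bp upstream). The shares of 16.7%, 27.3% (with the member fne counted) and 15.8% stand beside the 12.1% of all genes.

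Within the gene body and 5 kb the same lists had 1 of 6, 8 of 11 and 13 of 19 genes with a reproducible summit, with fne itself among the 8. Their median windows were 48407, 42941 and 46777 bp, against 12166 bp over all genes and 37078 bp over the long-window genes, of which 48.7% had one.

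The same was counted for genes of the nervous system. Of 19 neuronal differentiation genes 1 had a reproducible summit within 500 bp of a start, scrt (signal 342, 328 bp upstream), a zinc-finger gene of the snail family. None of 15 neural precursor genes had one, and 1 of 7 glial genes did, moody (288, 208 bp upstream), a receptor gene of the glial blood-brain barrier. The shares of 5.26%, 0% and 14.3% stand beside 12.1%. Within the gene body and 5 kb, 6 of 19 (31.6%), 3 of 15 (20.0%) and 5 of 7 (71.4%) had a reproducible summit, beside 33.1% of all genes. The median windows of these lists were 36844, 12430 and 15829 bp, against 12166 bp over all genes. For the neuronal differentiation genes the long-window genes are closer in length, with a median window of 37078 bp, and 48.7% of those had a summit. Standard markers were counted by the summit within 500 bp of a start, beside the same 12.1% of all genes. By that measure 1 of 7 neuronal genes, elav itself, 1 of 3 glial genes, moody, and 0 of 3 germline genes matched had one. Of the other matched markers of each kind, some had a reproducible summit only farther away, within the gene body and 5 kb. The rest of each kind had no reproducible summit there. A peak at a marker gene is no measure of its expression or of the cells in the sample.

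The genes whose best summits had ranks most like those of the family were compared over the pooled list and both replicates, as the distance between log10 ranks, among 10952 genes with a summit in all 3. Nearest to elav were C1GalTA, which encodes a galactosyltransferase, CG31886 and CG46397, which share 1 peak on 2L with ranks of 99, 111 and 101 (distance 0.0326). Nearest to fne were CG32225, Pex23, a peroxisome gene, and SCCRO4, with 1 peak on 3L and ranks of 1441, 2267 and 1050 (distance 0.0283). The ranks of fne itself came from different positions. Its best summit was at 12925942 in the pooled list (rank 1527) and at 12926108 in replicate 3 (rank 1064). In replicate 2 it was at 12938047 (rank 2207). Nearest to Rbp9 by the peak it shares with its neighbours were Axud1, eys and Rab5, a gene of the early endosome, with 1 peak on 2L and ranks of 485, 345 and 917 (distance 0.0412). Each of these trios shares a single peak, so each counts as 1 position.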

How the data were processed

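Peak lists of 2 biological replicates of 1 group were used. Per the submitters' notes beside the deposited files, candidate peaks, background included, were called in each replicate with a control, and once more on pooled alignments. The labels and notes name no aligner, caller or discovery rate threshold (not given in the sources used here), and the depth per sample is unknown. The signal deposited by the authors is a score of no stated unit. The deposited −log10 q gave each q-value, and the deposited summit offset each position. Control profiles and dm3 lists were not used here.

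The gene models of Ensembl release 115 (BDGP6.54) were used with the dm6 sequence of RefSeq Release 6, after the arm lengths had been compared with the peak positions. Start sites within 50 bp formed 1 group. Counts, distances and ranks were computed in Python 3.11.15 with numpy 2.4.6 and pandas 2.3.3, and checked on simulated data. The members and gene lists were chosen with earlier results of these data known, and no test was made. Genes named are the members, genes holding a member's reproducible summit or starting within 500 bp of one, the 3 genes nearest in rank, and up to 4 genes per list by signal. hec, svr, lilli, lncRNA:CR45625 and lncRNA:CR45626, which reach into a window, were named after their values were seen. The germline marker nos found no match.

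Alternatives covered other flanks (0, 2 and 10 kb), distances, ranking by q-value, overlapping peaks counted once, the 1471 strongest reproducible peaks, single replicates, canonical transcripts and motif windows of 100 and 300 bp.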

Additional observations from a re-analysis of the deposited data

How the results depend on the processing

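Of 43 alternatives over 16 results, 26 were labelled as leaving the value the same and 17 as moving it. The label of same still allowed shifts in small counts. For example, the pairs of summit and motif with a match went from 7 to 5 and 10 with windows of 100 and 300 bp. With no flank, elav had 1 reproducible summit, fne 3 and Rbp9 0, and with 2 kb Rbp9 also had 0, so the 2 peaks of Rbp9 depend on the flank. With 10 kb, elav had 3, fne 4 and Rbp9 3. Counting overlapping peaks once left elav with 2, fne with 2 and Rbp9 with 1. The 1471 strongest reproducible peaks held 1 for elav, 0 for fne and 1 for Rbp9. From the best peaks of 1 replicate alone, elav had 2 to 3 summits, fne 1 to 2 and Rbp9 2 to 3. The lowest count for fne, 1, was without replicate 2. Ranked by q-value, the strongest peaks of elav and Rbp9 both had rank 1, since 1254 peaks share the lowest q-value. To the canonical start the strongest Rbp9 summit was 15774 bp away. Within 50 bp, 2 of the 7 summits were in both replicates, and within 250 bp all 7 were, with no share over all reproducible summits given at these distances. The share of all genes with a summit was 7.66%, 22.6% and 45.9% for flanks of 0, 2 and 10 kb, and 9.10% and 14.2% for 250 and 1000 bp from a start. No paired analysis was possible because there was 1 group. The lists hold no read counts, so depth sets no interval here, and whether a missing candidate reflects depth was not tested.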

Other observations

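Close pairs of summits were not particular to these genes. Over the reproducible list of 2942 peaks, 382 gaps between neighbouring summits were under 250 bp. The pairs in fne (201 bp) and in the Rrp1 and gammaTub23C gap (202 bp) are among these. The smallest gap was 199 bp in each of the 4 lists, so both pairs lie close to the lowest spacing that the lists hold.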
